A study of Mus musculus and Rattus norvegicus with 26 samples.

Results

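Intronic contigs of single mouse and rat hippocampal neuron somas were compared gene by gene and intron by intron. A contig is a stretch of an intron covered by nearby reads. Transcripts outside the nucleus that carry such stretches are called cytoplasmic intron-sequence retaining transcripts (CIRTs). For somas the paper counted only short contigs as CIRTs, because it read the greater length of soma contigs as a possible effect of nuclear RNA. Contigs of every length are used here unless a limit is stated, so not all of them are CIRTs by the paper's soma definition. The authors provide 1 list of contigs for each species. A gene was taken as a shared host when its symbol was spelled identically in both lists, and an intron as matched when the intron number of that gene was listed in both species. Of 5895 genes in the mouse soma list and 3393 in the rat soma list, 1775 were shared hosts, which is 30.1% of the mouse genes and 52.3% of the rat genes. They held 811 matched introns in 676 genes. The 2 lists together contain 19034 of the 112345 contigs in the series.

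Hippocampi of C57BL/6 mice and Sprague-Dawley rats were harvested at embryonic day 18, and neurons were grown in primary culture before somas were mechanically isolated. The RNA of the somas went through 3 rounds of aRNA amplification, a linear copying by T7 transcription from a poly(T) primer. By the labels, 3 mouse and 3 rat soma libraries entered the lists, but each list pools them. There is therefore 1 value per species and no spread between libraries, so differences between species have no test and species cannot be told apart from library, depth or annotation. Somas include the nucleus, so unspliced nuclear RNA and cytoplasmic RNA cannot be told apart, nor can fewer cells with a transcript and less of it per cell. The mouse list held 12931 contigs in 10555 introns with 1855447 reads in all, and the rat list 6103 contigs in 5314 introns with 2094541 reads. Other lists of the series serve below for comparison. By the labels, dendrites gave 3 mouse and 2 rat libraries, also from embryonic day 18. Brown adipose tissue cells of CD-1 mice gave 6 libraries at embryonic day 17.5. Cardiomyocytes of a Fucci mouse embryo gave 9 at embryonic day 14.5. Intervals below are 95% Wilson intervals of a share and cover counting error only, since introns of a gene and reads copied by amplification are not independent.

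Introns are removed from most transcripts in the nucleus, by a spliceosome that recognises a GU at the 5′ end and an AG at the 3′ end of the intron. Some transcripts nevertheless keep an intron or a piece of it, and in neurons such transcripts have been found outside the nucleus. Mouse and rat are close relatives whose orthologous genes mostly keep the same exon order, so the number of an intron, counted from the 5′ end, can serve as a rough address in both species. In all 2398 mouse and all 1137 rat transcripts with several listed introns the numbers ran from 5′ to 3′.

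Mouse contigs of matched introns are shown here from the NCBIM37 (mm9) genome, 5′ to 3′ on the strand of the gene. The first set comes from matched introns with among the highest counts in both species. Grik1 encodes a kainate receptor subunit, Syt1 the calcium sensor of synaptic vesicle release, and Vps72 a subunit of a chromatin remodelling complex. All are stretches inside longer introns, and capitals mark runs of at least 6 A or T.
Grik1 intron 13, chr16:87928384-87928598, minus strand: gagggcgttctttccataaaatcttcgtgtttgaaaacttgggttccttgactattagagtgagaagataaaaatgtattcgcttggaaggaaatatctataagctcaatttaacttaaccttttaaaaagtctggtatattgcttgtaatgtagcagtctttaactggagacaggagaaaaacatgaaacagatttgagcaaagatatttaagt
Syt1 intron 4, chr10:108100574-108100819, minus strand: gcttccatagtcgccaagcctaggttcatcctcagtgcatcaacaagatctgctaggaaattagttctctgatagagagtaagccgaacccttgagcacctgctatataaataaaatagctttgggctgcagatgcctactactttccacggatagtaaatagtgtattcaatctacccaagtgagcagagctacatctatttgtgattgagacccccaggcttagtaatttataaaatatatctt
Vps72 intron 3, chr3:94922745-94923008, plus strand: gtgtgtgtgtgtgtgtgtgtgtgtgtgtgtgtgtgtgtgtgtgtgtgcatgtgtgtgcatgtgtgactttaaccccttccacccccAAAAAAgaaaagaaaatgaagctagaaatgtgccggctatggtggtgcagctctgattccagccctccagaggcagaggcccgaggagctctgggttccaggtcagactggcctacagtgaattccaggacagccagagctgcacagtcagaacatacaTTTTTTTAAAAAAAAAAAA
The second set shows short matched introns that a mouse contig covered from end to end, a feature that was more frequent among matched introns than among other listed introns. Rps16 encodes a ribosomal protein, Rabac1 a membrane protein of the Golgi that binds Rab proteins, and Atp2b1 a calcium pump of the plasma membrane. Here capitals mark the first and last bases of the intron, the GT and AG of the splice sites.
Rps16 intron 4, chr7:29137430-29137512, plus strand: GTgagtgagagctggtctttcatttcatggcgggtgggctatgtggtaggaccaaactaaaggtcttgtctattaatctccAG
Rabac1 intron 4, chr7:25755029-25755105, minus strand: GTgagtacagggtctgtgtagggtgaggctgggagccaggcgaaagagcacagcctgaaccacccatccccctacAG
Atp2b1 intron 4, chr10:98449780-98449874, plus strand: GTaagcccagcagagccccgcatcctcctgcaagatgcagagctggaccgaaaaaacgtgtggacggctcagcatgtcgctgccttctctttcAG

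Shared hosts carried more reads than genes listed in 1 species. The most read intron of a gene had a median of 63 reads in mouse somas for the 1775 shared genes (quartiles 11.5 and 248) against 32 for the 4120 genes listed in mouse only (quartiles 6 and 145). In rat somas the medians were 82 (quartiles 8 and 483) and 29.5 (quartiles 5 and 270). The ratios of medians were 1.97 in mouse and 2.78 in rat. Limiting contigs to 400 nt, the limit that the paper set for somas, lowered the ratio to 1.79 in mouse and 1.40 in rat. Shared genes also had more listed introns, a mean of 2.14 against 1.64 in mouse and 1.73 against 1.38 in rat. An intron with at least 250 reads was present in 24.96% of shared mouse genes (interval 23.0 to 27.0) and 16.5% of the others (interval 15.4 to 17.7). The rat shares were 35.6% (interval 33.4 to 37.9) and 25.8% (interval 23.7 to 28.0).

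Genes with higher counts were found in the other species more often, but sharing was frequent also at the lowest counts. Among mouse genes whose most read intron had 2 or 3 reads, 21.5% were also listed in rat, and among those with 1024 or more reads 46.7% were (interval 41.2 to 52.3). The corresponding rat shares were 45.0% and 60.9%. The rise was not steady over all classes, and matching of introns changed little from the lowest class to the highest. Of mouse introns of shared genes with 2 or 3 reads 19.4% were matched, and of those with at least 1024 reads 18.4% (interval 13.4 to 24.8). The rat shares were 22.1% at 2 or 3 reads (interval 18.7 to 25.8) and 37.2% at 512 to 1023 reads (interval 31.0 to 43.8), but 23.96% at 1024 or more (interval 19.4 to 29.2).

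**Figure D1:**
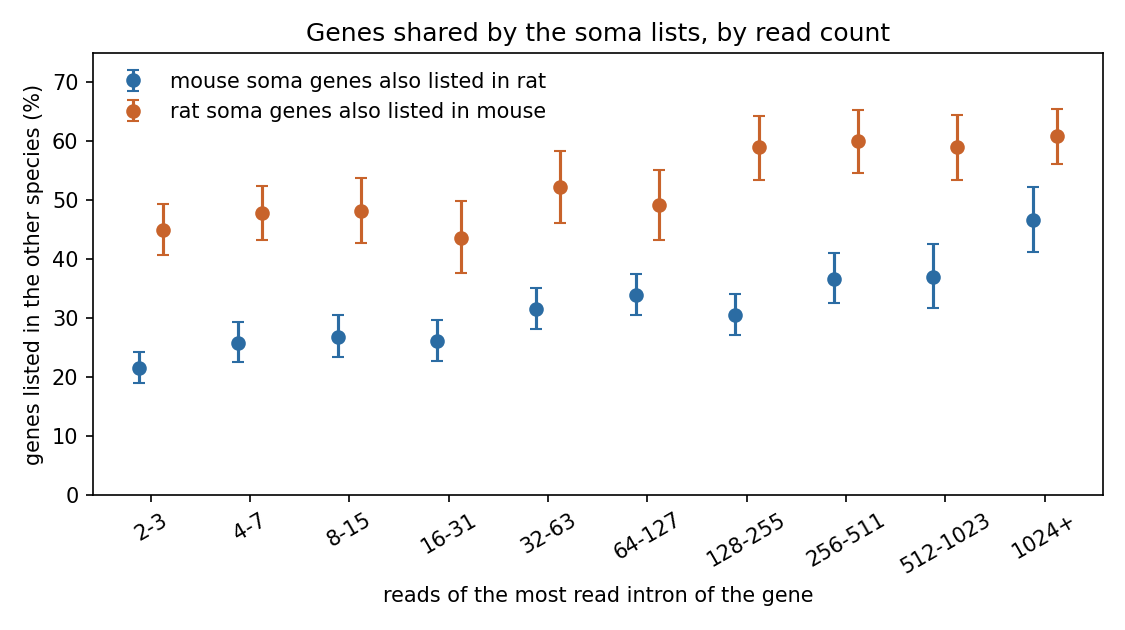
Share of genes of each soma list that the other species also lists, in percent, against the reads of the most read intron of the gene in classes that double. Points are shares and bars their 95% Wilson intervals, and from the class of 2 or 3 reads, the lowest drawn, to the highest the shares go from 21.5% to 46.7% in mouse and from 45.0% to 60.9% in rat. Genes with 1 read, 2 in mouse and 3 in rat, are left out.

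Long genes were listed more often in both species, and they were also shared more often. Of 19421 symbols of spliced coding genes in the mouse annotation, 30.1% were listed in mouse somas, 15.6% in rat somas and 9.11% in both. Rat listing was 30.2% among symbols listed in mouse (interval 29.1 to 31.4) and 9.36% among symbols not listed in mouse (interval 8.88 to 9.86). This difference was present in all 5 classes of gene length. For genes with at most 3000 nt of intron in all, the shares were 22.1% (interval 16.7 to 28.7) and 3.64% (interval 2.99 to 4.41). For genes with over 100000 nt they were 35.4% (interval 32.8 to 38.0) and 18.6% (interval 16.1 to 21.3). The annotated introns are those of the mouse, and rat gene lengths were not analysed here.

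Identical spelling missed some genes. Through synonyms of the RefSeq gene table (GRCm38.p6, used for names only) 51 more genes were listed in both species under different symbols, and 23 of them held 30 matched introns. They include several RNA-binding proteins of the neuronal splicing machinery. Celf2, which binds GU-rich RNA, is named Cugbp2 in the rat list, and all 3 of its listed rat introns were matched. Rbfox2, a splicing regulator, is named Rbm9 in rat and had 2 matched introns. Another 186 rat genes carry LOC or RGD placeholder symbols, none of which is a mouse symbol in the list.

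Matched introns made up 21.3% of the 3806 listed mouse introns of shared genes (interval 20.04 to 22.6) and 26.3% of the 3078 listed rat introns (interval 24.8 to 27.9). With contigs of at most 400 nt in both lists, 1161 genes were shared and 380 introns in 342 of them were matched, 18.0% of the mouse and 21.7% of the rat introns. The same matching between soma and dendrite lists within a species is a yardstick in which the numbering is the same by construction. There, 55.6% of the mouse soma introns and 49.3% of the rat soma introns of genes in both lists were matched. Dendrites of mouse and rat gave 20.1% of the mouse and 29.8% of the rat introns (interval 28.6 to 31.1), the latter above the interval of the rat somas.

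Agreement was highest at identical numbers. For 26.3% of the rat introns the mouse list held the same number, for 17.0% the number above it, for 15.3% the number below it, for 13.5% the number 2 above and for 13.0% the number 2 below. At a distance of 6 the shares were 6.79% and 7.12%. Genes with 1 listed intron in each species give 1 difference each. Of 562 such genes, 119 had the same number (21.2%, interval 18.0 to 24.7), 56 a mouse number higher by 1 and 54 a rat number higher by 1. The mouse number was higher in 228 and the rat number in 215, so differences went either way about equally often.

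**Figure D2:**
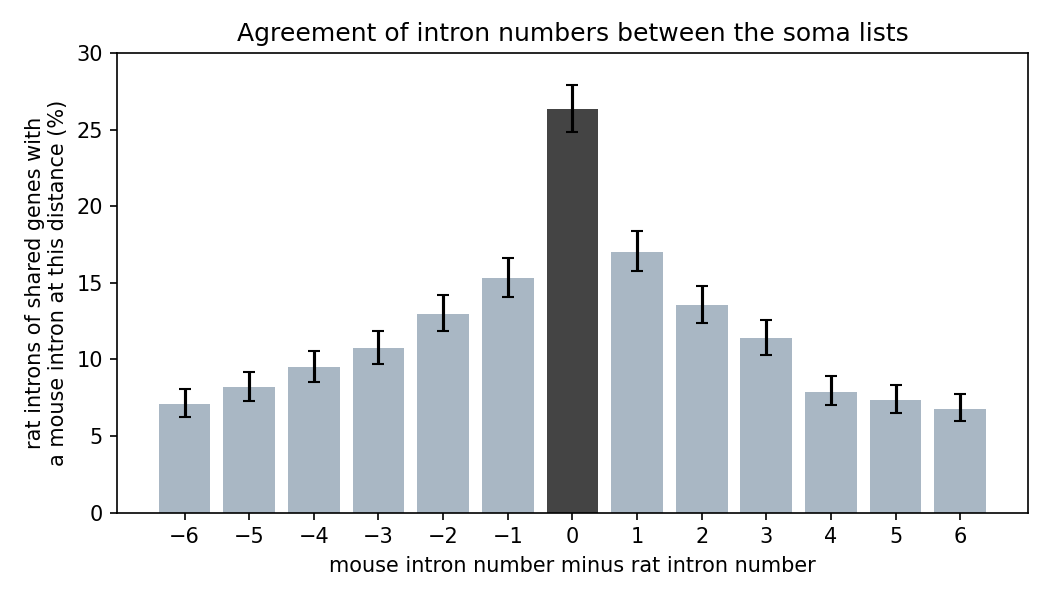
Share of the 3078 listed rat introns of shared genes, in percent, for which the mouse list holds an intron of the same gene at each difference of intron number. Bars are shares with 95% Wilson intervals, and the bar at 0 stands at 26.3% against 17.0% at +1 and 15.3% at -1.

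Some genes agreed better at another difference than at 0. Of 486 shared genes with several listed introns in both species, 105 had at least 2 matches at equal numbers, and 103 had at least 2 at some other difference of up to 3 and fewer at 0. The latter number takes the best of 6 differences. With single matches counted too, 227 genes (46.7%) had more matches at another difference, 76 (15.6%) had the most at 0 alone, 140 were tied and 43 had none. Whether first exons annotated differently in the 2 species displace the numbers of some genes was not tested. The spacing of matched introns was compared as well, without a reference of pairs at displaced numbers, so it cannot tell equal from displaced numbering. For 120 neighbouring pairs of matched introns in 96 genes, the distance between the contigs was within 2-fold between mouse and rat in 104 pairs (86.7%, interval 79.4 to 91.6). The median log2 ratio of mouse to rat distance was 0.03. The exceptions include Crebl2, with introns 1 and 2 spaced 13712 nt in mouse and 372 nt in rat.

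Whether an intron number was listed in rat went with its listing in mouse. Over 27902 annotated mouse introns of 1744 shared genes, 13% were listed in mouse somas. Of the introns whose number was listed in rat, 26.4% were listed in mouse (interval 24.9 to 28.0), and of the remaining introns 11.4% (interval 11.1 to 11.8), a ratio of 2.31. The matched introns were 2.81% of all annotated introns of these genes. The ratio of 2.31 pools genes with few and with many introns. In genes with 1 to 5 introns the shares were 52.2% and 25.9%, and in genes with 6 to 10 introns 31.0% and 17.2%. They were 22.9% and 12.2% in genes with 11 to 20 introns and 19.1% and 9.04% in genes with 21 or more.

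Short introns showed the largest ratio. Of introns of at most 300 nt, 21.2% with a number listed in rat were listed in mouse (46 of 217, interval 16.3 to 27.1), against 2.26% of those without (71 of 3138, interval 1.80 to 2.84), a ratio of 9.37. From 300 to 1000 nt the ratio was 4.08, from 1000 to 3000 nt 2.04, and over 30000 nt 1.41, where the shares were 34.7% and 24.6%. Introns over 30000 nt were thus listed often in both groups, and introns of at most 300 nt rarely where rat did not list the number. Even so, 71 of the 117 listed mouse introns of at most 300 nt had a number not listed in rat. Last introns stood apart by position. Last introns with a number listed in rat were listed in mouse in 44.0% of cases (129 of 293, interval 38.5 to 49.8), against 15.5% of last introns without (interval 13.7 to 17.5). First introns gave 30.1% and 13.1%, and middle introns 23.9% and 11.1%.

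**Figure D3:**
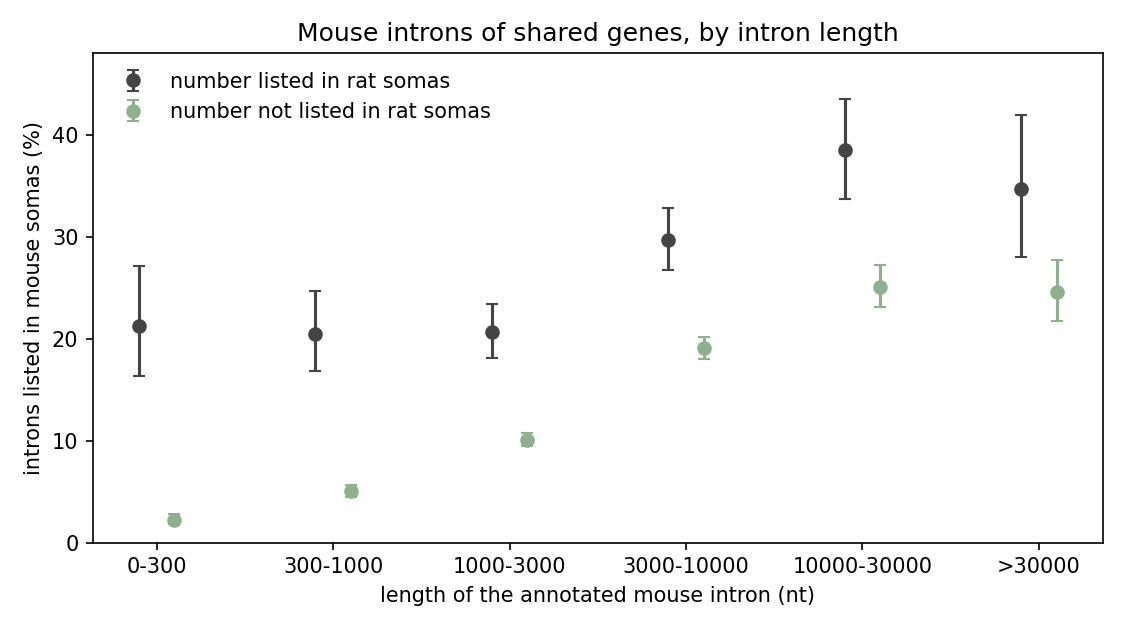
Share of annotated mouse introns of shared genes that were listed in mouse somas, in percent, by intron length in nt, for introns whose number was or was not listed in rat somas. Points are shares with 95% Wilson intervals, and the gap narrows from 21.2% against 2.26% in the shortest introns to 34.7% against 24.6% in the longest.

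The 46 matched introns of at most 300 nt lay in 40 genes. In 34 of them a mouse contig covered the whole intron, at lengths from 77 to 298 nt, and all 34 began with GT and ended with AG. A total of 23 of the 46 introns lay in 19 genes of housekeeping families, a grouping made after their values were seen. The same families held 152 of all 3355 annotated introns of this length in the shared genes (4.53%), 36 of the 117 listed in mouse (30.8%) and 47 of the 217 whose number was listed in rat (21.7%). Ribosomal proteins held 6 of them (among them Rps16, Rps18, Rpl22l1 and Rpl18, the last with 2), the chaperones of the Hsp90 and Cct families 6, proteasome subunits 3, respiratory chain subunits 3, peroxiredoxins 3 and elongation factor 1 subunits 2. Their counts were low, with a median of 8.5 reads in mouse and 11 in rat. Intron 4 of Rps16 had 162 reads in mouse and 48 in rat, and intron 5 of Prdx5, a peroxiredoxin that removes peroxides, had 81 and 123. Intron 4 of Hsp90aa1, which encodes a heat shock chaperone, had 74 and 10. A last intron was concerned in 23 of the 46. In 15 of the 46 a contig overlapped an exon of another annotated transcript of the same strand.

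Over all lengths, the contigs of matched introns differed from other mouse soma contigs mainly at their ends. They reached an end of the intron in 20.4% of cases (interval 18.1 to 22.9), against 13.5% for other introns of shared genes (interval 12.5 to 14.7) and 12.1% for genes listed in mouse only (interval 11.4 to 12.8). They covered the whole intron in 4.93%, against 1.53% and 1.45%. A tract of at least 10 A within 300 nt downstream, to which a poly(T) primer can anneal, was present beside 18.8%, 19.5% and 18.0% of contigs, with overlapping intervals. Median GC content was 41.3%, 40.9% and 42.0%.

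Read counts of matched introns were only weakly related between species. Over 811 introns, Pearson's r of log2 counts was 0.13 and Spearman's rho 0.13, a description over introns that share libraries and genes. The median count was 28 in mouse (quartiles 6 and 126) and 34 in rat (quartiles 6 and 348). The median log2 ratio of rat to mouse counts was 0.74 (quartiles -1.95 and 3.19), on raw counts that no library total scales. Counts were within 4-fold of each other in 331 introns (40.8%). At least 250 reads were reached by 133 introns in mouse, 237 in rat and 44 in both.

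**Figure D4:**
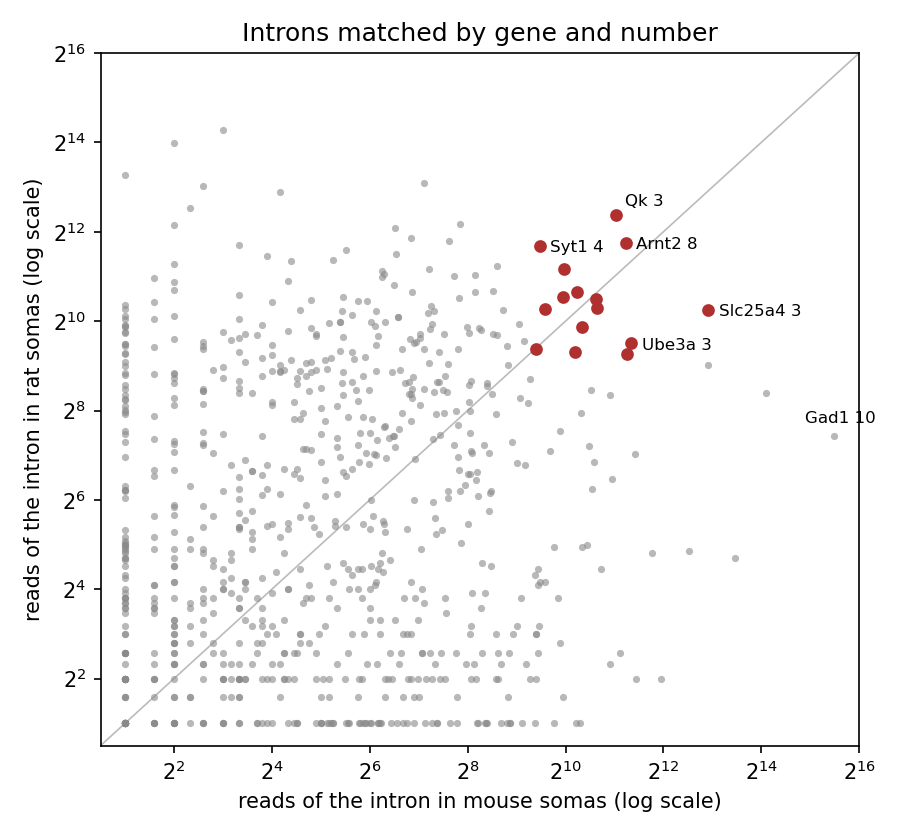
Reads of the 811 matched introns in mouse somas and rat somas, both on log scales, with the line of equal counts. Each point is an intron, red points are the 15 with the highest smaller count, and the cloud fills most of the field, with Spearman's rho at 0.13.

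Among the 15 matched introns with the highest smaller count, several lay in genes of the synapse. Intron 4 of Syt1 had 712 reads in mouse and 3296 in rat. Intron 6 of Snap25, a SNARE protein of vesicle fusion, had 1295 and 932 reads, each in 1 long contig of 2726 and 1464 nt. Intron 13 of Grik1 had 1596 and 1246. Intron 1 of Gpm6a, a neuronal membrane glycoprotein, had 1578 and 1452, in 9 mouse and 4 rat contigs. These introns were chosen for their counts in both species, and among the 4 the counts of Syt1 lay farthest apart.

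Regulators of RNA, transcription and protein turnover formed another group. Intron 8 of Arnt2, a transcription factor of the bHLH-PAS family, had the highest smaller count, with 2405 reads in mouse (3 contigs, chromosome 7, 91438667 to 91446983) and 3428 in rat (2 contigs). Intron 3 of Qk, an RNA-binding protein that regulates splicing, had 2107 and 5330. Intron 3 of Ube3a, a ubiquitin ligase, had 2602 and 724, intron 1 of Klhl7, an adaptor of a ubiquitin ligase, 1211 and 1618, and intron 9 of Ubac1 765 and 1232. Intron 3 of Vps72 had 985 and 1484, in an intron of 367 nt.

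Mitochondrial and metabolic genes completed the 15. Intron 3 of Slc25a4, the ADP/ATP carrier of the inner mitochondrial membrane, had 7737 reads in mouse and 1218 in rat. Intron 4 of Atp5g3, a subunit of ATP synthase, had 670 and 664, the closest pair of the set. In both genes the mouse contig covered the whole intron, which is the last of the transcript, of 777 and 476 nt. Intron 4 of Rexo2, a ribonuclease, had 1172 and 634, and intron 7 of Cyp51, an enzyme of cholesterol synthesis, 2428 and 612.

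Most of the 676 genes with a match had 1 matched intron (571 genes), 80 had 2, 21 had 3, 3 had 4 and 1 had 5. Reln, which encodes the extracellular guidance protein reelin, had the most. All 5 of its listed rat introns (2, 11, 40, 50 and 63) were also listed in mouse, where 27 introns were listed. Mouse and rat counts were 1266 and 248 in intron 2, 1968 and 88 in intron 11, 18 and 520 in intron 40, 74 and 2 in intron 50, and 273 and 15 in intron 63. The order of the introns by count thus differed, with intron 40 the lowest in mouse and the highest in rat. The spacing was similar in both species, 181883 nt in mouse and 187500 nt in rat from intron 2 to 11, and 107573 and 99370 nt from intron 11 to 40.

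Introns 4, 5, 6 and 8 of Syt1 were matched, all 4 listed in mouse and 4 of the 5 in rat. Intron 8 had 7666 reads in mouse and 518 in rat, and intron 6 had 2 in each. In App, the amyloid precursor protein, introns 2, 5, 6 and 14 were matched, with 196 reads in mouse and 3522 in rat in intron 6. In Mtdh, an RNA-binding protein of the endoplasmic reticulum, introns 2, 7, 8 and 9 were matched, with 216 and 253 reads in intron 2. Gad1, the enzyme that makes GABA, had 3 matched introns. Its intron 10 held 45674 reads in mouse, the highest count of the mouse list, and 173 in rat, while intron 15 held 18 in mouse and 472 in rat. All 3 introns listed in Cox5b, a respiratory chain subunit, were matched in both species, with 2, 10 and 25 reads in mouse and 16, 42 and 13 in rat. Ccar1, Etfa, Hsp90aa1 and Kif5b had 3 matches each, and were named before other genes with 3 by symbol order.

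Other shared genes listed many introns and matched none. Dmd, the dystrophin gene, listed 23 introns in mouse and intron 14 in rat. Odz4, a teneurin of the cell surface, listed 6 and 8, and 4 of its 6 mouse introns had a rat intron with a number higher by 1. Displaced numbers in Odz4 and introns that truly differ cannot be told apart here. Birc6 listed 9 and 4, Cacna1a, the pore subunit of P/Q-type calcium channels, 5 and 6, and Lrrc7, a postsynaptic scaffold protein, 6 and 5. Lrrc49 listed introns 2 and 14 in mouse and 8 introns between 7 and 15 in rat. Dgkb and Fry had 10 listed introns each over both species. The highest rat counts here were 4135 reads in intron 65 of Birc6 and 3574 in intron 21 of Odz4, and the highest mouse count was 8478 in intron 53 of Fry.

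High counts did not ensure a listing in the other species. Genes of the mouse list alone were led by Dlc1, a GTPase activating protein (14140 reads in intron 2), Ptprd, a receptor phosphatase of synapse formation (10792 in intron 7), and Phlpp1, a phosphatase that acts on Akt (8982 in intron 3), followed by Fkbp6 (8680) and Dgat2l6 (8558). Genes of the rat list alone were led by Cenpi, a centromere protein (19031 in intron 18), Nell1 (18580 in intron 12, with 7 listed introns), Patl1, a factor of mRNA decapping (16153), Leng4 (10702) and Copb1, a subunit of the COPI vesicle coat (10620). Absence from a list means that no contig passed the authors' filters, and sequence that fails to map uniquely in 1 genome could not be checked for rat.

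Genes of 15 pathway lists were listed in both species more often than coding genes at large. Of their 370 symbols 62.97% were listed in mouse, 49.2% in rat and 34.6% in both, against 30.1%, 15.6% and 9.11% of all spliced coding symbols. Without the lists of ribosomal and of RNA-binding proteins, the 304 symbols of the other 13 lists gave 66.4%, 47.7% and 36.2%. Some genes stand in the lists under both an older and a newer symbol. The 360 symbols found in the mouse annotation gave 64.7%, 49.2% and 35.6%, and joining synonyms, chosen after seeing the data, gave 364 genes with 64.6%, 50.8% and 37.1%. Of coding genes with over 100000 nt of intron 21.6% were listed in both, and the part of gene length in the list counts was not tested. A matched intron was present in 61 of the shared list genes, which are the 34.6% of the 370 symbols given above. Among all shared genes, 676 of 1775 had a matched intron (38.1%). Whether the list genes differ from that share was not tested. The lists were chosen with results of these data known, so the counts are descriptions.

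Genes of the presynaptic active zone, which dock and prime vesicles, were shared most often, in 15 of 26, with a matched intron in 11. Matches in each list are read against the 38.1% of all shared genes that had a matched intron. Besides Syt1 and Snap25, they include Rims1, a scaffold of the active zone, with 13 listed introns in mouse and 1 in rat (intron 18, matched). Ppfia2 and Cadps, which act in active zone assembly and dense-core vesicle release, had 2 matched introns each. Postsynaptic scaffolds were shared in 12 of 25, with a match in 4, among them Dlg2 and Shank3. Neurexins, neuroligins and contactins were shared in 7 of 19, and 6 of the 7 had a match. Nrxn3, which encodes a presynaptic adhesion molecule, had a match in intron 8. Of the GABA and glycine receptors 7 of 18 were shared.

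Among ionotropic glutamate receptors, the channels of fast excitation, 7 of 18 were shared. Gria4 had matches in introns 6 and 7, and its most read intron held 24913 reads in mouse and 2223 in rat. Gria3, Grik1 and Grin1 had 1 match each, while Gria2, Grik5 and Grin2b were shared with different introns. Gria1 was listed in mouse only (8 introns, up to 2804 reads) and Grik3 in rat only (4 introns, up to 632). Of sodium and calcium channels 8 of 26 were shared, with matches in Cacna1b, Cacna1c and Cacna1e, and of potassium channels 5 of 31, with matches in Kcnc1, Kcnh7 and Kcnt2. Cadherins and other adhesion genes were shared in 7 of 27, with 12 listed in mouse only and 3 in rat only. Dscam was in the rat list only (10148 reads) and Ctnna2 in the mouse list only (7879 reads).

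**Figure D5:**
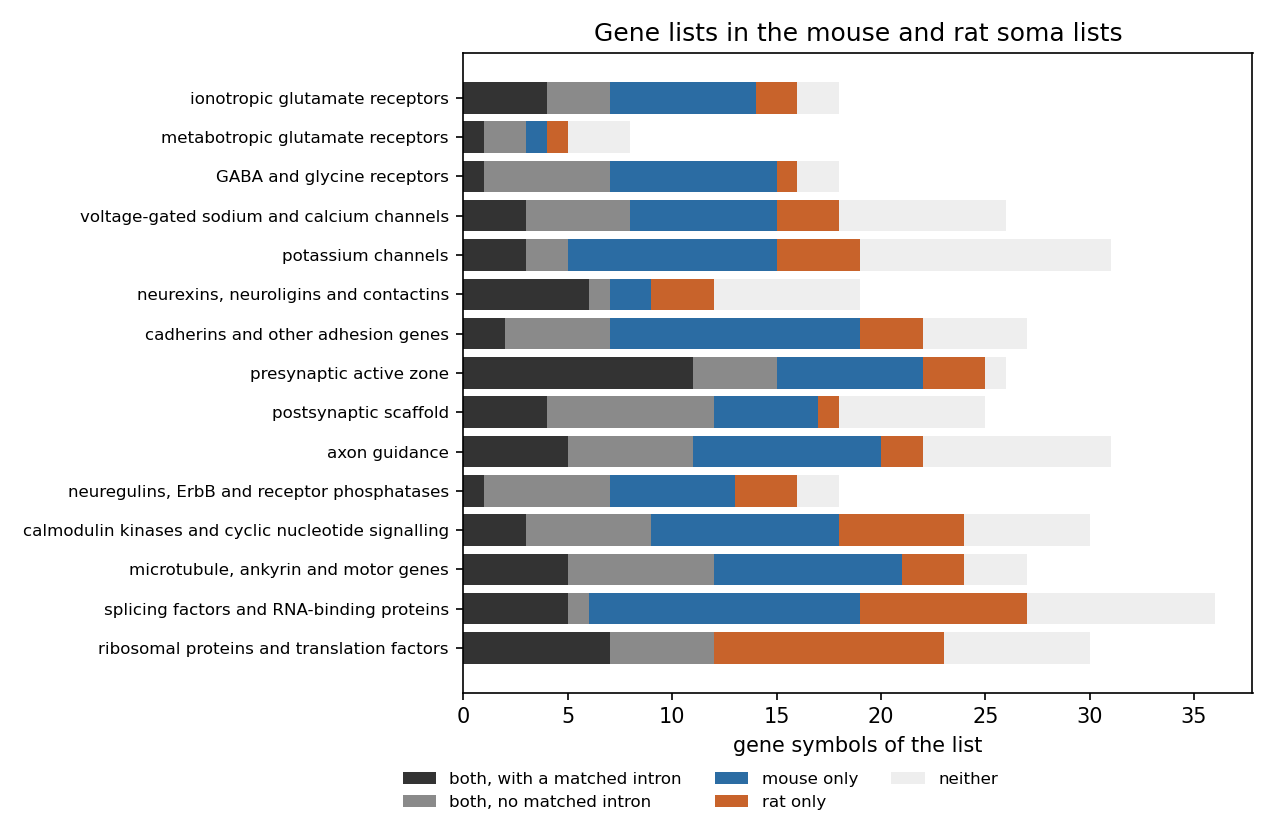
Number of gene symbols of each of 15 lists that both soma lists hold, with or without a matched intron, that 1 list holds, or that neither holds. Bars are counts of symbols, and the presynaptic list shows 15 of 26 shared while the ribosomal list has no gene in mouse only.

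Axon guidance genes were shared in 11 of 31, with a match in 5, among them introns 2 and 3 of Dcc, the netrin receptor. Of neuregulins, ErbB receptors and receptor phosphatases 7 of 18 were shared and only Erbb4 had a match. Calmodulin kinases and cyclic nucleotide genes were shared in 9 of 30, metabotropic glutamate receptors in 3 of 8, and microtubule and motor genes in 12 of 27. Splicing factors and RNA-binding proteins were shared in 6 of 36 symbols. In 5 of the 6 an intron was matched, for instance introns 4, 5 and 6 of Rbm5, beside 38.1% of all shared genes. That list holds genes such as Celf2 and Rbfox2 under both the mouse and the rat spelling. Joined through synonyms it held 32 genes, of which 11 were shared and 8 had a matched intron. The microtubule and motor list then had 14 of 26 genes shared.

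Ribosomal proteins and translation factors were listed more often in rat than in mouse. Of 30 genes, 23 were listed in rat and 12 in mouse, and all 12 were shared. A matched intron was found in 7, for instance intron 4 of Rps6 with 661 reads in mouse and 20 in rat. In the other 6 the most read intron had at most 15 reads in mouse and at most 41 in rat. The genes in rat only include Rps24 (530 reads) and Rpl3 (4 introns, up to 53 reads).

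Marker genes of neurons were listed in both species. Of 10 general neuronal markers 6 were listed in mouse, 4 in rat and 3 in both (Snap25, Syt1 and Stmn2), and of 10 markers of GABAergic neurons 4, 7 and 4. Of 8 markers of glutamatergic neurons 4 were listed in mouse, 2 in rat and Grin2b in both, while Slc17a7, the vesicular glutamate transporter, was in neither list. Markers of other cells are read against the 30.1% of all spliced coding symbols listed in mouse and 15.6% in rat. Of 9 astrocyte markers 3 were listed in mouse and 2 in rat, of 11 oligodendrocyte markers 2 and 2, of 9 microglial markers 2 and 1, and of 9 endothelial and mural markers 5 and 1. With lists this short, most of these counts lie near or below those shares, and the endothelial and mural count in mouse lies above. The microglial marker Ptprc had 225 reads in its most read mouse intron and 125 in rat, and Pdgfra, a marker of oligodendrocyte precursors, had a matched intron with 102 and 2. The astrocyte marker Slc1a2 had 2 matched introns, intron 6 with 114 and 219 reads and intron 8 with 140 and 2. Cdh5 (104 reads) and Itgam (70 reads) were in the mouse list and Mog (58 reads) in the rat list, whereas Gfap, Aqp4, Csf1r, Cx3cr1, Pecam1, Cldn5 and Olig2 were in neither. The highest counts among the non-neuronal markers were 706 reads for Kdr in mouse and 219 for Slc1a2 in rat. A listed intron shows intronic reads and not expression of the spliced mRNA, and what these markers contribute to the shared genes was not tested.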

How the data were processed

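Hippocampal neuron somas of mouse and rat were sequenced after aRNA amplification. The authors trimmed and aligned paired reads with RUM to mm9 and rn4 (builds as in the submitters' processing notes), counted only unique intronic alignments, filtered out introns holding a poly(A) site or a predicted gene, joined nearby reads into contigs and pooled all libraries of each condition. The deposited counts are raw read counts per intron, without normalization, repeated on each contig of an intron and taken once. Library totals are not part of the lists, so depth is known only as summed intronic reads.

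Contig length is the stop minus the start of the lists, whose last base is included, and coordinates are printed counting from 1. Where a symbol had several transcripts, the highest count of each intron number was kept (172 mouse and 19 rat genes had several). By position, 5980 of 6075 listed mouse transcripts had a counterpart in GENCODE on NCBIM37. Tools were Python 3.11.15, pandas 2.3.3, numpy 2.4.6, scipy 1.17.1, pysam 0.24.0 and matplotlib 3.10.9. Matching was tested on simulated data. The lists hold counts for no single library, so no count model was run.

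The members and gene lists were chosen with earlier results of these data known. Named genes are the 15 matched introns with the highest smaller count, 10 genes with the most matched introns, 8 with the most listed introns and no match, 5 per species with the highest count in that species only (placeholder symbols left out), and members of fixed lists, with ties broken by symbol. A few genes that this rule names are not reported here. Rat intron lengths and sequence were not analysed here. Alternatives were limits on contig length, read minimums, other symbol and transcript matching, and intron numbers within 1.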

Additional observations from a re-analysis of the deposited data

How the results depend on the processing

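With contigs of at most 400 nt the numbers were 1161 shared genes (23.5% of mouse, 46.0% of rat) and 380 matched introns (18.0% and 21.7%), and with contigs under 400 nt 1156 genes (23.4% and 45.9%) and 378 introns (17.9% and 21.7%). The ratio of median reads of shared to other genes in rat fell from 2.78 to 1.40 under the 400 nt limit. Restricting rat symbols to those of the mouse annotation raised the rat share of genes to 58.2%. Counting numbers within 1 as the same gave 1472 introns, 39.1% of mouse and 47.8% of rat.

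Read minimums from 4 upward lowered every share. With minimums that double from 8 reads upward in 5 steps, 1085, 888, 720, 536, 361 and 202 genes were shared and 423, 313, 223, 157, 91 and 42 introns matched. From a minimum of 4 reads upward, the shared genes were 27.8%, 24.8%, 23.4%, 22.6%, 21.5%, 20.3% and 18.3% of mouse and 48.2%, 44.6%, 41.9%, 38.5%, 33.3%, 26.9% and 19.6% of rat genes. From 16 reads, matched introns were 19.2%, 18.0%, 17.7%, 16.2% and 14.1% of mouse introns, and from 8 reads 24.2%, 23.0%, 20.7%, 20.1%, 18.2% and 16.4% of rat introns. These counts fall by construction, since fewer introns are kept. The ratio of listing with and without a rat number, whose alternatives were chosen after seeing the data, lay between 2.16 and 2.86 in all of them. The other alternatives left shares within their intervals, and Spearman's rho of matched counts was 0.097 in both of its alternatives.

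No paired analysis was possible because each list pools the libraries of a condition. Leaving out a library was not possible either. Depth per library limits which introns pass into a list, and absence from a list is no measure of absence in the cell.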

Other observations

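Matched introns were also listed more often in the other samples of the series than the other listed introns of the 676 genes that hold them. In mouse dendrites 58.7% of the 811 matched introns were listed (interval 55.3 to 62.0), against 48.9% of the other 982 mouse introns of these genes (interval 45.8 to 52.0). Rat dendrites listed 44.5% of the matched introns (interval 41.1 to 47.95) and 38.3% of the other 637 rat introns (interval 34.6 to 42.1), with intervals that overlap. Single cells of brown adipose tissue (BAT) listed 72.0% and 60.5%, and single cardiomyocytes 49.1% and 35.4%, both against mouse numbers. A total of 168 matched introns (20.7%) were listed in all 6 lists. They include intron 3 of Qk, intron 3 of Slc25a4, intron 4 of Bace1 (566 reads in mouse and 756 in rat somas), which encodes the beta-secretase that cuts the amyloid precursor protein, and intron 6 of App.

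By contrast 82 matched introns (10.1%) were listed in none of the other 4 lists. Intron 13 of Grik1 and intron 3 of Vps72 led this set, followed by intron 4 of Exoc3l (336 and 393 reads) and intron 4 of Adam9 (308 and 897). Introns 10 and 15 of Gad1, intron 18 of Rims1 and intron 17 of Shank3 also belong to it. A further 19 matched introns were listed in all 4 neuronal lists and in neither BAT cells nor cardiomyocytes. By the smaller count they were led by intron 3 of Slc27a5 (336 and 374), intron 7 of Slc24a2 (93 and 2895), intron 1 of Gatc (80 and 1010) and intron 5 of Uap1 (44 and 98). Intron 4 of Cntnap4 (43 and 395) and intron 2 of Gpm6a (40 and 146) followed. The same shares were not taken for unmatched introns, so neither set is shown to be particular to matched introns.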
